A study of Mus musculus with 4 samples.

Results

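Regulatory T cells are the CD4+ T cells that restrain other lymphocytes. The lineage is set by the transcription factor Foxp3, and its cells carry a group of surface proteins by which they are often recognised. Foxp3 and 6 such surface genes (Gpr83, Izumo1r, Nrp1, Lrrc32, Nt5e and Entpd1) were chosen by gene symbol, and all 7 were found among the 16718 genes of the expression table. The study compared mouse naive CD4+ T cells with a conditional knockout of Zfp281 (Zfp281 cKO) and wild type cells (WT), both stimulated with an antibody to CD3 for 4 hours before total RNA was extracted. Zfp281 encodes a zinc finger transcription factor, and the study's title states that it directly represses Ctla4. The sources used here name no Cre line, strain or age for the mice. The labels name 2 libraries per genotype, but the table holds 1 value per gene and genotype, so no difference below has a replicate check.

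Nt5e encodes the ecto-enzyme CD73 and Entpd1 encodes CD39, which act in turn to convert extracellular ATP to adenosine, an inhibitor of T cells. Lrrc32 encodes GARP, which holds latent TGF-beta on the cell surface. Nrp1 encodes neuropilin-1, a co-receptor for semaphorins and vascular endothelial growth factor that marks regulatory T cells made in the thymus. Izumo1r encodes folate receptor 4, found on regulatory and on anergic CD4+ T cells and known in the egg as Juno, the receptor for sperm Izumo1. Gpr83 encodes a G protein-coupled receptor that is abundant in regulatory T cells. Several of these genes are also active in other CD4+ T cells or in other blood cells.

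Rose and fell refer below to genes with an FDR under 0.05 in the authors' deposited table, in cKO relative to WT. This compares 2 sets of reads and not 2 conditions, because nothing in it measures the variation between libraries or mice. Ratios are cKO over WT values in FPKM (fragments scaled to gene length and to the depth of the library), with exact (Clopper-Pearson) 95% intervals on read numbers that cover counting error only. Of the 7 genes, 2 rose (Foxp3 and Nt5e), 1 fell (Gpr83) and 4 did not pass (Izumo1r, Nrp1, Lrrc32 and Entpd1). Over all 16718 genes 24.7% passed, 13.4% as higher and 11.3% as lower in cKO. By the authors' own marks, which also ask for a change of 2-fold, Foxp3 was the 1 gene of the 7 that passed, beside 0.939% of all genes. With an assumed CV of 10% between sets of reads none of the 7 was higher, beside 0.646% of all genes, and at 20% none passed in either direction, beside 0.15%. The median difference of the 7 genes was 0.12 on the log2(FPKM + 1) scale, beside 0.01 over all genes of the table.

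**Figure D1:**
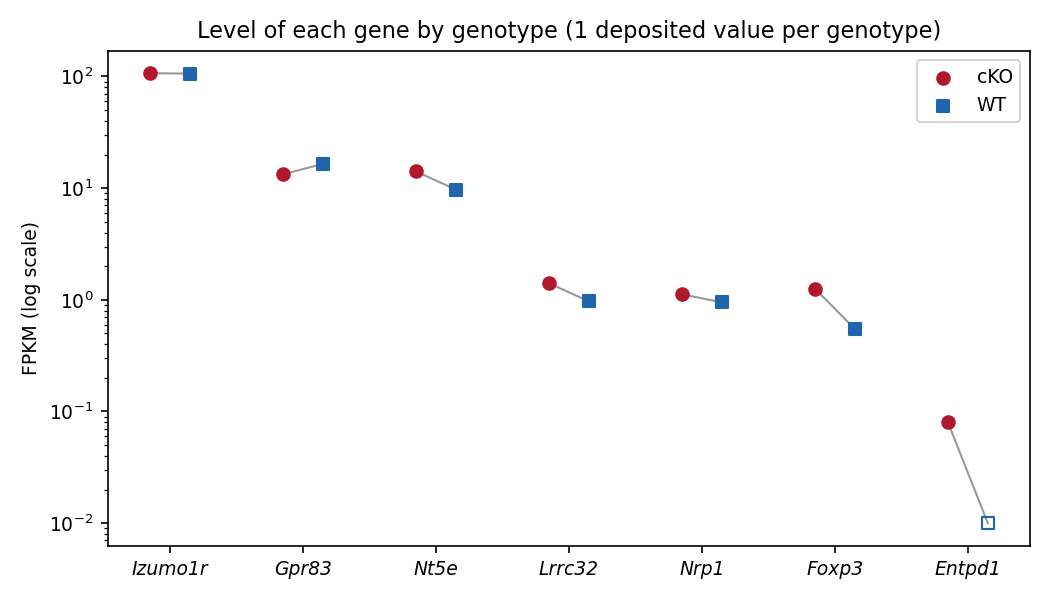
Level of Foxp3 and the 6 surface genes in FPKM on a log axis, with the cKO value as a red circle and the WT value as a blue square, 1 deposited value per genotype. Izumo1r lies near 106 FPKM in both genotypes, Foxp3 at 1.26 FPKM in cKO and 0.55 FPKM in WT, and the open square marks Entpd1 in WT, listed at the table's lowest value.

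Summed over genes, 17.2 M reads stood behind the cKO values and 17.35 M behind the WT values. Zfp281 itself had 0.44 FPKM in cKO and 66.3 FPKM in WT, in the direction of the labels. The defining genes of CD4+ T cells were abundant, with Cd4 at 239.8 FPKM in cKO and 249.9 FPKM in WT. Of the CD8 T cell genes, Cd8a stood at 0.47 FPKM in cKO and 0.28 FPKM in WT, and Cd8b1 at 17.8 FPKM in cKO and 11.5 FPKM in WT. All 9 measured genes of the CD4+ T cell identity list fell, with Thy1 at 0.507 of WT, Cd3g at 0.732, Cd5 at 0.748 and Lck at 0.804, and their median was -0.28 (log2). Over genes at 1 FPKM or more 16.9% fell, and 38.9% of genes at the level of Izumo1r. Their part in the results below was not tested.

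Sequences around annotated transcript starts of these genes are shown because the study's title names direct repression by Zfp281, a protein that prefers G-rich DNA. RefSeq promoter windows of GRCm38.p6, the same assembly as mm10, were found for 6 of the 7 symbols and run from 250 bases before to 50 bases after a transcript start. The start used for Gpr83, the second of Foxp3 and that of Izumo1r lie within the gene ranges given below. The runs GGGAGGG and CCCTCCC, which are each other's reverse complement, are in capitals.
Foxp3, first start (chrX:7579426-7579725, + strand): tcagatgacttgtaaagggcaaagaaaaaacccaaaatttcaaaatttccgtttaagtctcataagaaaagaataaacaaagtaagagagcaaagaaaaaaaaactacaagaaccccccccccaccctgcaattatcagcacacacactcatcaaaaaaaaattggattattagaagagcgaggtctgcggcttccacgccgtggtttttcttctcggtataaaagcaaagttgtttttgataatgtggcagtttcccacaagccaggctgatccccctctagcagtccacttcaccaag
Foxp3, second start (chrX:7580233-7580532, + strand): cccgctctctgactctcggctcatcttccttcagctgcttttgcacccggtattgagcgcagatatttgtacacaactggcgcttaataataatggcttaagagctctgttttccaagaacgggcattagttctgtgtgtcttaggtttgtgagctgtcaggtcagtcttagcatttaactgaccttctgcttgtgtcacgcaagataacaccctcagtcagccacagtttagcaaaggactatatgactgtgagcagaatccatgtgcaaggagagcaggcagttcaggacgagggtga
Nt5e (chr9:88327359-88327658, + strand): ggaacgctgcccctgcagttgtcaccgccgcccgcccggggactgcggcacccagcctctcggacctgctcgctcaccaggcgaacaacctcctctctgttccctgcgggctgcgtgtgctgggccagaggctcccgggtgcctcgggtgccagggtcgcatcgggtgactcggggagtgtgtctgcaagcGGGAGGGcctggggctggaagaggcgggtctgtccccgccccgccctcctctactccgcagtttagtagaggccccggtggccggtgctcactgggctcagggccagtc
Gpr83 (chr9:14859960-14860259, + strand): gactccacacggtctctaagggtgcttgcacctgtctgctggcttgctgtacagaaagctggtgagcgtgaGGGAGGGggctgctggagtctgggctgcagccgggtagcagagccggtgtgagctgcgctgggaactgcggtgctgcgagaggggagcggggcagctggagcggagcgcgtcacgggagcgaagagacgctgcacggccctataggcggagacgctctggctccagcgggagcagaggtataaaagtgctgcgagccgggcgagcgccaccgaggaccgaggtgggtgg
Izumo1r (chr9:14903718-14904017, - strand): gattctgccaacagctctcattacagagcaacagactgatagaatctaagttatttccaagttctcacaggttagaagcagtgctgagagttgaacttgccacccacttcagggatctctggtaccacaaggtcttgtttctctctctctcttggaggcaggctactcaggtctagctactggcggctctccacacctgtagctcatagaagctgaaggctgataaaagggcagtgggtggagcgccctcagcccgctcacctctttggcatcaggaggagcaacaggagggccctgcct

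Neither Foxp3 window nor the Izumo1r window holds the 7-letter run, while the Nt5e and Gpr83 windows hold it once each. The window of Ctla4, the gene named in the study's title, also lacks the run and is 42.0% G and C. The Nrp1 window holds it 4 times, some of them overlapping, and of the windows at the 2 Entpd1 starts the one farther downstream holds it once. Over all 32851 promoter windows 22.0% hold the run in either orientation. The longer GGGAGGGG, which contains it, is in the Gpr83, Nrp1 and downstream Entpd1 windows and in 12.2% of all windows. GGGGAGGGG is in the Nrp1 window and in 6.37% of all windows. G and C make up 40.7% and 47.7% of the Foxp3 windows, 71.0% of the Nt5e window and 67.0% of the Gpr83 window, against a median of 52.7% over all windows. A match or its absence describes letters in these windows only and says nothing about binding.

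Foxp3 (NCBI gene 20371, GRCm38 chromosome X, 7579676 to 7595243) was low in both genotypes and higher in cKO. It had 1.26 FPKM in cKO, from 82 reads, against 0.55 FPKM in WT, from 36 reads. The ratio was 2.29-fold (1.54 to 3.50), or 0.54 on the log2(FPKM + 1) scale, which understates the change of a gene this low. The authors' deposited table gives it an FDR of 0.000133. Among 1072 other genes with a mean FPKM within 1.5 times its own, 6.25% rose and 5.04% fell. In bulk RNA, more cells that express Foxp3 and more Foxp3 RNA per cell cannot be told apart. With an assumed CV of 10% its adjusted p in a beta-binomial test was 0.0577 over all genes and 0.0435 over genes at 1 FPKM or more in either genotype, a filter that Foxp3 passes through its cKO value alone.

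Foxp3 shares annotated exonic bases with other genes, and the sources do not state whether counting used the strand. In GENCODE M21, 590 of its 4577 exonic bases lie in exons of Ccdc22 on the opposite strand and 266 in exons of Ppp1r3f, also opposite. Foxp3 shares more bases, 853, with Flicr, which lies on the same strand, so counting by strand would not separate these 2 genes. It shares 373 with Gm36995 on the opposite strand. No value was found for Flicr or Gm36995. Ccdc22 had 12.1 FPKM in cKO and 9.41 FPKM in WT, and Ppp1r3f had 6.04 FPKM in cKO and 4.72 FPKM in WT. Both rose, 1.29-fold and 1.28-fold. Their part in the reads given to Foxp3 was not tested. The genes with the ratio nearest to that of Foxp3 were Map3k15, 4930515G01Rik, Mlana, Rufy4 and Fam83d, with ratios of 2.27 to 2.29. They were picked by that ratio out of 162 genes with levels within 1.5 times those of Foxp3 in both genotypes. This is a likeness over 2 values only.

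**Figure D2:**
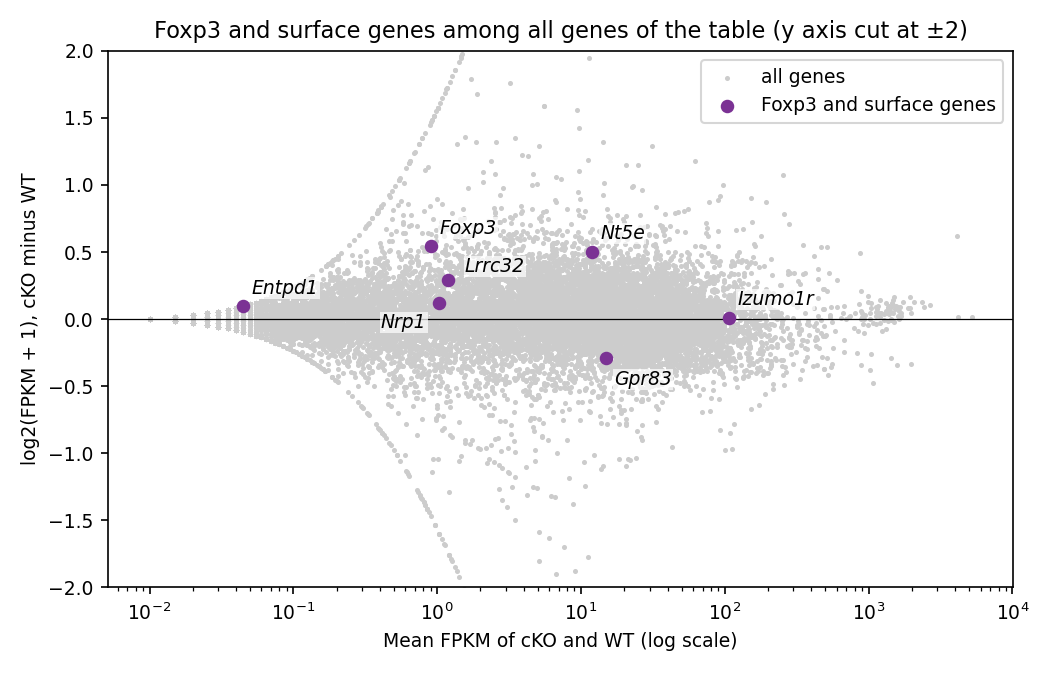
Difference on the log2(FPKM + 1) scale, cKO minus WT, against the mean FPKM of both genotypes on a log axis, with all genes in grey and Foxp3 and the surface genes in purple; genes beyond 2 in either direction are not drawn. Foxp3 (0.54) and Nt5e (0.50) lie above 0, Gpr83 (-0.29) below, and Izumo1r (0.01) on the line.

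The adenosine-forming enzymes had very different levels. Nt5e (NCBI gene 23959, chromosome 9, 88327609 to 88372089) had 14.2 FPKM in cKO, from 877 reads, against 9.71 FPKM in WT, from 607 reads. It rose 1.46-fold (1.31 to 1.62), with an FDR of 1.2e-11 in the authors' deposited table. Among 2478 other genes of similar mean level 19.6% rose and 12.2% fell. Entpd1 (NCBI gene 12495, chromosome 19, 40612366 to 40741602) was barely detected, at 0.08 FPKM from 6 reads in cKO and listed at the lowest value, with 0 reads, in WT. With the WT reads set to a floor of 3, the ratio was 2.02-fold, which is not a lower bound. The lower 95% counting limit of the 6 against 0 reads was 1.19-fold, with an FDR of 0.0591 in the authors' deposited table. Among genes of similar mean level 0.913% rose and 0.228% fell. With an assumed CV of 10% the adjusted p of Nt5e was 0.37 (beta-binomial test).

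Of 16 other genes of extracellular ATP and adenosine at 1 FPKM or more, 5 rose, 4 fell and 7 did not pass, beside 19.9% higher and 16.9% lower over the 10728 genes at that level. The ATP-gated channel gene P2rx7 had 1.02 FPKM in cKO, from 84 reads, and 0.25 FPKM in WT, from 19 reads, and rose 4.08-fold (2.69 to 7.78). That ratio is of rounded FPKM values and the interval is of reads, so they are not centred alike. P2rx7 reaches 1 FPKM through its cKO value alone, so it enters the list's count because it is high there. P2ry10, a lysophospholipid receptor gene named with the P2Y family, rose 1.58-fold. Adk, whose enzyme removes adenosine by phosphorylation, rose 1.38-fold (1.33 to 1.44), and Dpp4, whose product binds adenosine deaminase, and Enpp1, an ecto-enzyme that hydrolyses ATP, also rose. The nucleoside transporter gene Slc29a1 fell to 0.689 of WT (0.647 to 0.735). The adenosine receptor gene Adora2a fell to 14.9 FPKM in cKO, against 17.1 FPKM in WT, and Nt5c3 and the channel gene P2rx4 fell too. The median of the list was 0.07 (log2), beside 0.02 over genes at 1 FPKM or more.

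Gpr83 and Izumo1r are neighbours on chromosome 9, and Gpr83 fell while Izumo1r did not pass. Gpr83 (NCBI gene 14608, 14859880 to 14870789, + strand) and Izumo1r (NCBI gene 64931, 14885814 to 14903951, - strand) are separated by 15024 bases, and neither shares exonic bases with another gene in GENCODE M21. Gpr83 had 13.3 FPKM in cKO, from 802 reads, against 16.4 FPKM in WT, from 1009 reads. It fell to 0.809 of WT (0.730 to 0.881), with an FDR of 2.76e-05 in the authors' deposited table. Among 2616 other genes of similar mean level 20.6% rose and 14% fell. With an assumed CV of 10% its adjusted p was 0.947 (beta-binomial test). Izumo1r had 106.9 FPKM in cKO, from 2408 reads, against 106.2 FPKM in WT, from 2416 reads. Its ratio was 1.01 (0.950 to 1.06), with an FDR of 0.931 in the authors' deposited table. Among 638 other genes of similar mean level 27.6% rose and 38.9% fell.

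Of 10 other genes at 1 FPKM or more within 500 kb of this pair, 1 rose and 2 fell, beside 19.9% higher and 16.9% lower over all genes at that level. Endod1 had 1.81 FPKM in cKO and 1.02 FPKM in WT, Ankrd49 had 10.4 FPKM in cKO and 14.03 FPKM in WT, and Taf1d had 44.8 FPKM in cKO and 56.2 FPKM in WT. Panx1, the next gene of the table beyond Izumo1r, stood at 29.8 FPKM in both. Of 6 relatives and partners of Izumo1r and folate carriers in the table, 3 were below 1 FPKM. Of the 3 at 1 FPKM or more none rose and 2 fell, namely the tetraspanin gene Cd9, to 0.472 of WT (0.414 to 0.537), and the reduced folate carrier gene Slc19a1, to 0.687 of WT. The third, Izumo4, had 19.6 FPKM in cKO and 18.7 FPKM in WT, and the median of these 3 was -0.52 (log2).

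**Figure D3:**
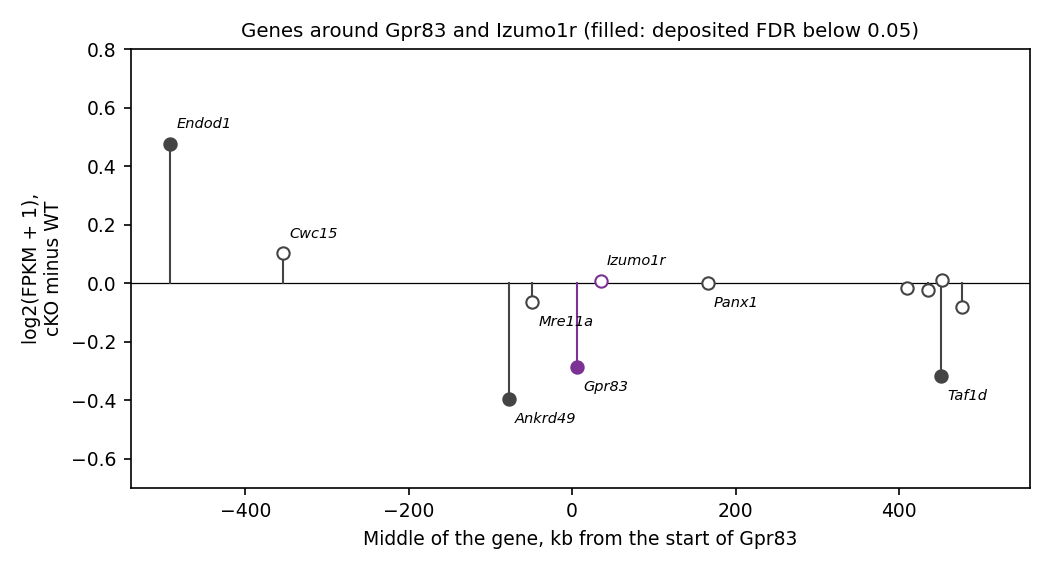
Difference on the log2(FPKM + 1) scale, cKO minus WT, of genes at 1 FPKM or more within 500 kb of Gpr83 and Izumo1r, against the distance of the gene's middle from the start of Gpr83 in kb; filled points had a deposited FDR below 0.05 and purple marks the pair. Gpr83 lies at -0.29 and Izumo1r at 0.01.

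Nrp1 and Lrrc32 were low and did not pass. Nrp1 (NCBI gene 18186, chromosome 8, 128358591 to 128505476) had 1.12 FPKM in cKO, from 114 reads, against 0.95 FPKM in WT, from 99 reads. Its ratio was 1.18-fold (0.880 to 1.54), with an FDR of 0.515 in the authors' deposited table. Among genes of similar mean level 7.08% rose and 5.06% fell. Lrrc32 (NCBI gene 434215, chromosome 7, 98489305 to 98501831) had 1.41 FPKM in cKO, from 93 reads, against 0.97 FPKM in WT, from 65 reads. Its ratio was 1.45-fold (1.04 to 2.01), near that of Nt5e on far fewer reads. The counting interval leaves out 1, and the authors' deposited table gives a p of 0.0225 and, adjusted over all genes, an FDR of 0.0819. Among genes of similar mean level 7.85% rose and 4.69% fell.

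Genes that work with GARP and neuropilin-1 moved in both directions. Of 15 genes of latent TGF-beta display and its receptors, 5 rose, 4 fell and 6 did not pass, beside 19.9% higher and 16.9% lower over all genes at 1 FPKM or more, with a median of -0.03 (log2). Tgfb1, the cargo of GARP, fell to 0.838 of WT (0.807 to 0.870), and Nrros, which encodes a relative of GARP that also holds latent TGF-beta, fell to 0.845 of WT (0.778 to 0.917). Hsp90b1, a chaperone gene, and the signal transducer gene Smad2 fell as well. The protease gene Furin rose 1.20-fold (1.12 to 1.29) and the receptor gene Tgfbr2 rose 1.19-fold, and Smad4, Ski and Skil rose less. Of 8 neuropilin ligands and partners, 1 rose and 2 fell, with a median of 0.13 (log2). Plxnd1, encoding a plexin that pairs with neuropilins, fell to 0.611 of WT (0.556 to 0.671), and Gipc1, encoding a protein that binds the neuropilin-1 tail, rose 1.18-fold.

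Levels in FPKM are per length and can be ordered. In cKO the order was Izumo1r, Nt5e, Gpr83, Lrrc32, Foxp3, Nrp1 and Entpd1. Nt5e over Gpr83 was 1.06 (0.966 to 1.17) there, Lrrc32 over Foxp3 1.12 (0.823 to 1.52) and Foxp3 over Nrp1 1.12 (0.837 to 1.51), so these neighbours did not differ beyond counting error. In WT the order was Izumo1r, Gpr83, Nt5e, Lrrc32, Nrp1, Foxp3 and Entpd1, with Gpr83 over Nt5e at 1.69 (1.53 to 1.88) and Nrp1 over Foxp3 at 1.73 (1.17 to 2.60). Lrrc32 over Nrp1 was 1.02 (0.735 to 1.41) in WT. Izumo1r stood above 96.7% of all genes in cKO and 96.5% in WT, whereas Foxp3 stood above 38.8% in cKO and 32.9% in WT.

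Relative to Foxp3, the 5 surface genes with reads in both genotypes had lower values in cKO than in WT, with counting intervals below 1 for all but Lrrc32. Foxp3, with its ratio of 2.29, is the shared denominator, so any gene with a smaller ratio has a lower value here. These comparisons all use the same 82 and 36 reads of Foxp3 and are not independent. Per FPKM of Foxp3 there were 84.8 FPKM of Izumo1r in cKO and 193.1 in WT, 10.6 FPKM of Gpr83 in cKO and 29.9 in WT, and 11.2 FPKM of Nt5e in cKO and 17.6 in WT. Changes in ratio were computed for the 15 pairs of the 6 genes with reads in both genotypes, using two-sided Fisher's exact tests on reads with Benjamini-Hochberg adjustment over the 15 pairs, which again compares 2 sets of reads. In 10 pairs the adjusted p was below 0.05, and the share among pairs of other genes was not computed. Against Foxp3, the adjusted p in these exact tests was 5.12e-07 for Gpr83, 0.0472 for Nt5e and 0.106 for Lrrc32. Gpr83 relative to Foxp3 changed by a factor of 0.349 (0.227 to 0.529), Izumo1r by 0.438 (0.286 to 0.658), Nrp1 by 0.505 (0.304 to 0.833) and Nt5e by 0.634 (0.411 to 0.964). Lrrc32 relative to Foxp3 changed by 0.628 (0.367 to 1.07), an interval that holds 1. Among the surface genes, Nt5e relative to Gpr83 changed by 1.82 (1.58 to 2.09) and Izumo1r relative to its neighbour Gpr83 by 1.25 (1.12 to 1.40), while Nt5e relative to Lrrc32 changed by 1.01 (0.712 to 1.43).

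**Figure D4:**
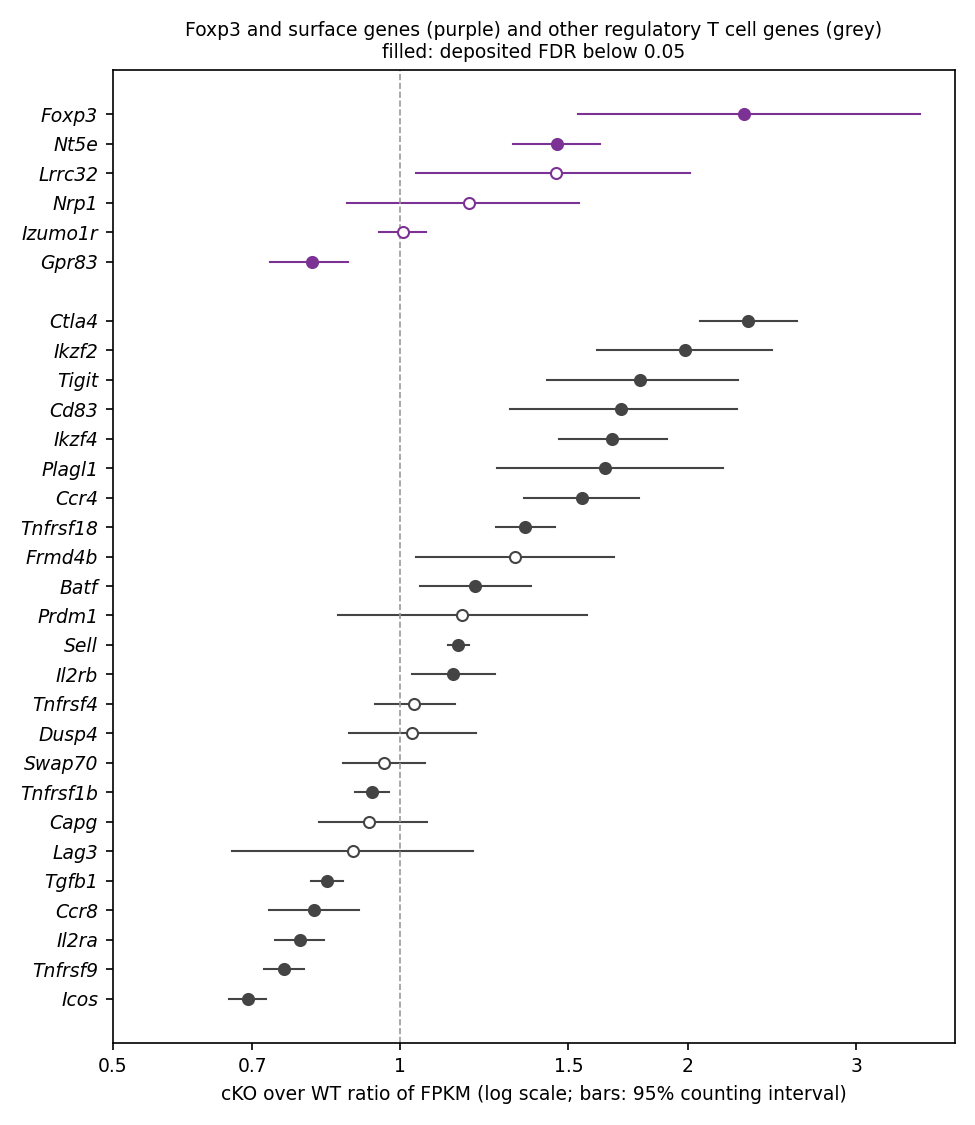
Ratio of cKO over WT FPKM on a log axis with 95% counting intervals, for the 6 genes with reads in both genotypes (purple) and other regulatory T cell genes at 1 FPKM or more (grey); filled points had a deposited FDR below 0.05. Foxp3 (2.29), Ctla4 (2.31) and Ikzf2 (1.99) lie on the right and Icos (0.692) at the lower left.

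Other genes known from regulatory T cells included some that rose and some that fell. Of 24 at 1 FPKM or more, 11 rose, 6 fell and 7 did not pass, beside 19.9% higher and 16.9% lower over all genes at that level, and their median was 0.14 (log2), beside 0.02. The share that passes depends on level, and no share was computed at the levels of these 24 genes. Genes such as Ikzf2 reach 1 FPKM through their cKO value alone. Ctla4, encoding the inhibitory receptor named in the study's title, rose 2.31-fold (2.06 to 2.60), close to the ratio of Foxp3. Tigit, another inhibitory receptor gene, rose 1.78-fold (1.42 to 2.26), Cd83 rose 1.70-fold (1.30 to 2.25) and Ikzf4, encoding the Foxp3 partner Eos, rose 1.67-fold (1.46 to 1.90). Ikzf2, encoding Helios and named after its values were seen, had 1.65 FPKM in cKO and 0.83 FPKM in WT. On the other side, Icos fell to 0.692 of WT, Tnfrsf9 to 0.755 and Il2ra, encoding the interleukin-2 receptor chain CD25, to 0.785 of WT (0.739 to 0.833). At an assumed CV of 10%, 2 of these genes passed, Ctla4 and Ikzf2, both higher, beside 0.646% of all genes as higher. Adjusted over genes at 1 FPKM or more, the level of this list, 2 passed again, beside 1.01% of those genes as higher.

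Genes known to be lower in regulatory than in conventional CD4+ T cells also moved both ways. All 17 in the table reached 1 FPKM, and 10 of them rose, 3 fell and 4 did not pass, beside 19.9% higher and 16.9% lower over all genes at that level. More genes pass at high levels, with 27.6% higher and 38.9% lower near the level of Izumo1r. No share was computed at the levels of these 17 genes, so their count cannot be set apart from their level. Their median was 0.16 (log2), of the same sign as that of the genes known from regulatory T cells. Dapl1 rose 1.64-fold (1.33 to 2.02) and the transcription factor gene Sox4 rose 1.64-fold (1.46 to 1.83). The survival gene Bcl2 fell to 0.694 of WT (0.659 to 0.732), Cd40lg, encoding the ligand that helps B cells, fell to 0.733 of WT, and Il7r also fell. At an assumed CV of 10% none of the 17 passed, beside 1.18% of all genes in either direction, a base that includes genes below 1 FPKM.

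Of 37 genes whose products act on the Foxp3 gene, 13 rose, 15 fell and 9 did not pass, with a median of -0.0015 (log2). Over all genes at 1 FPKM or more 19.9% rose and 16.9% fell, which is also the base for the Foxp3 partners below. Many of the 37 lie far above 1 FPKM, where a larger share of genes passes. No share at their levels was computed. Stat5a and Stat5b carry the interleukin-2 signal to Foxp3. Stat5a had 70.8 FPKM in cKO and 39.7 FPKM in WT and rose 1.78-fold (1.70 to 1.87), and Stat5b rose 1.42-fold (1.38 to 1.46). Nfatc1, which carries the calcium signal of the T cell receptor, fell to 0.696 of WT (0.681 to 0.711). Dnmt3a, encoding a DNA methyltransferase, fell to 0.695 of WT (0.666 to 0.726). Of 18 Foxp3 partners and regulators of its protein, 3 rose, 2 fell and 13 did not pass, with a median of 0.01 (log2). The kinase gene Pim1 rose 1.54-fold, the deubiquitinase gene Usp21 1.33-fold and Pim2 to a lesser extent, whereas Ikzf1 fell to 0.776 of WT and the deacetylase gene Hdac7 to 0.838.

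**Figure D5:**
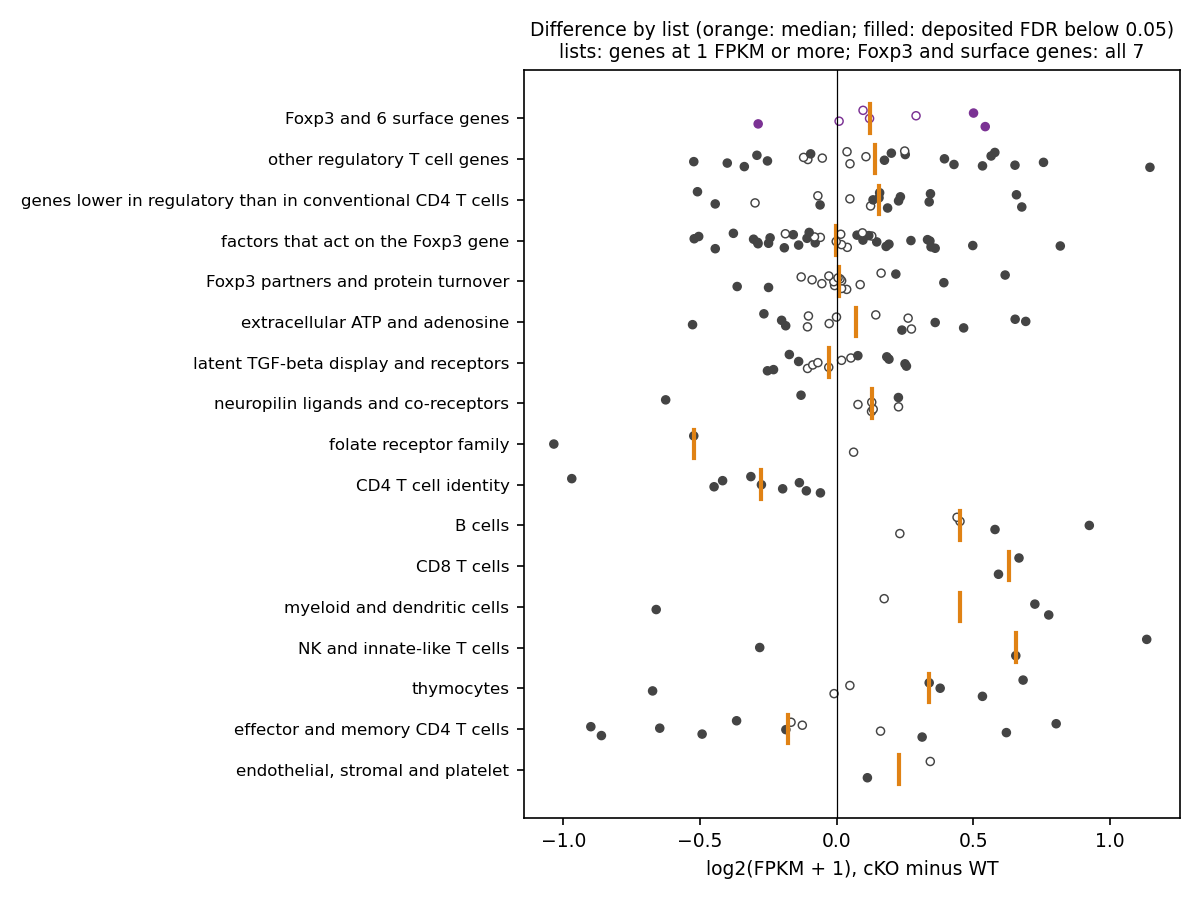
Difference on the log2(FPKM + 1) scale, cKO minus WT, for each gene of each list, with the median in orange and filled points for a deposited FDR below 0.05; Foxp3 and its surface genes show all 7 genes and the other lists show genes at 1 FPKM or more. The CD4 T cell identity list lies wholly below 0, and the B cell and CD8 T cell lists lie wholly above it.

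Markers of other cells that carry some of the surface proteins were low beside T cell genes, and their counts stand beside 19.9% higher and 16.9% lower over all genes at 1 FPKM or more. Of 5 B cell markers at 1 FPKM or more 2 rose and 3 did not pass, Cd74 having 11.9 FPKM in cKO and 7.63 FPKM in WT and H2-Aa 3.88 FPKM in cKO and 1.57 FPKM in WT. The 14 measured B cell markers summed to 26.5 FPKM in cKO and 16.3 FPKM in WT, all 14 having the larger value in cKO. The B cell gene Ms4a1 had 0.25 FPKM in cKO and 0.14 FPKM in WT, and Pax5 had 0.34 FPKM in cKO and was listed at the lowest value in WT. Both CD8 T cell markers at that level, Cd8b1 and Eomes, rose, and the 5 measured summed to 21.1 FPKM in cKO and 13.1 FPKM in WT. Of 4 myeloid and dendritic cell markers 2 rose (Lyz2 and Zbtb46) and 1 fell (Fcgr3), with sums of 31.7 FPKM in cKO and 26.2 FPKM in WT over 15 genes. Most of both sums came from Bst2, which did not pass and had 24.3 FPKM in cKO and 21.5 FPKM in WT. Of 3 NK and innate-like T cell markers 2 rose (Klrd1 and Cd163l1) and 1 fell (Prf1). Lyz2, Zbtb46 and Cd163l1 reach 1 FPKM through their cKO value alone and Fcgr3 through its WT value alone, so these counts depend on the filter. Their part in the values of Foxp3 and the surface genes was not tested.

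Against the same base of 19.9% higher and 16.9% lower, of 7 thymocyte genes 4 rose and 1 fell, Cd24a to 0.608 of WT, while Dntt, Ccr9, Cd1d1 and Satb1 rose. Among 12 effector and memory genes 3 rose and 6 fell. Ly6c1 rose 1.77-fold and Ccr2 and Cd44 also rose, whereas Cxcr3 fell to 0.310 of WT, Id2 to 0.523 and Pdcd1 to 0.630. Ccr9 and Ccr2 reach 1 FPKM through their cKO value alone and Cxcr3 through its WT value alone. Of 2 endothelial, stromal and platelet markers at 1 FPKM or more 1 rose, Pecam1, 1.08-fold. The medians of these lists were 0.34, -0.18 and 0.23 (log2), and those of the B cell, CD8 T cell, myeloid and NK lists were 0.45, 0.63, 0.45 and 0.66. The latter rest on 5, 2, 4 and 3 genes, beside a median of 0.02 over all genes at 1 FPKM or more. Genes that enter through their cKO value alone, such as Lyz2, Zbtb46 and Cd163l1, make the myeloid and NK medians depend on that filter.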

How the data were processed

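Sequencing used BGISEQ-500, per the labels' protocols. Bowtie2 2.2.5 and mm10 are named in the submitters' processing notes, and the sources used here give no quantification tool, annotation or test. The authors deposited FPKM in 1 column per genotype, and did not state how the 2 labelled libraries entered it. The unit was inferred, since a gene of a single read has a value inversely proportional to its length. The log2 fold changes and the p-value of each gene come from the authors. Their FDR, as deposited, exceeds 1 for some genes and was handled as a score. The authors' marks correspond to an FDR up to 0.001 together with a 2-fold change or more.

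Reads were recovered from FPKM, gene length less 36 bases, and the deposited p-values, which follow Audic and Claverie's formula for 2 read numbers at a depth ratio of 0.991 (cKO over WT). For 94% of 8464 genes with at most 200 reads, whole numbers near the estimate gave the deposited p-value within a relative 1e-05. Each of the 7 genes had such a pair within 2% or 2 reads of its estimate, Izumo1r 2 pairs, of which the nearer was used. Values at the lowest level of the table, 0.01, were taken as 0 reads. Whole numbers recovered this way rest on the formula and on the deposited values, and reads of the remaining genes are rounded estimates.

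The 7 genes and the 16 lists were chosen with earlier results of these data known. Of each list up to 4 passing genes at 1 FPKM or more with the largest log2(FPKM + 1) difference were named, and all passing genes of a direction where these were 5 or fewer, except for a gene that is not reported here. Cd8a, Cd4, Ms4a1, Pax5, Bst2, Izumo4, Panx1, Ikzf2, Il2ra, Icos and Tnfrsf9 were named after their values were seen. Of 16718 gene IDs, 16685 were found in RefSeq's GRCm38.p6 table, which gave coordinates. The Audic-Claverie and beta-binomial tests were tested on simulated data. Alternatives were another pseudocount, other filters, a median scaling, the authors' marks, recomputed p-values and an assumed CV. Python 3.11.15, pandas 2.3.3 and scipy 1.17.1 were used.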

Additional observations from a re-analysis of the deposited data

How the results depend on the processing

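No paired analysis was possible because the table holds 1 value per genotype, and no library could be left out for the same reason. The counts of 2 genes higher and 1 lower among Foxp3 and the surface genes, and of 11 higher and 6 lower among other regulatory T cell genes, were the same with a pseudocount of 0.1, with p-values recomputed from reads and with the median log2 ratio set to 0. That sameness is no check of the counts. The calls do not use the pseudocount, and the reads were recovered from the same deposited p-values. The median log2 ratio was only 0.0023 before it was set to 0. Under the authors' marks the counts were 1 and 0, and 1 and 0, beside 0.939% of all genes in either direction. With an assumed CV of 10% they were 0 and 0, and 2 and 0, and at 20% all 4 were 0. Over all genes 1.18% passed at 10% and 0.15% at 20%, in either direction. Adjusted over genes at 1 FPKM or more, an alternative added after the data were seen, the 10% counts were 1 and 0, and 2 and 0. Of all genes at that level 1.01% then passed as higher. Foxp3 and Ikzf2 pass that filter through their cKO values alone, so these counts are no independent check. A filter of 5 FPKM, which removes Foxp3, left 1 of the 7 genes higher. The changes relative to Foxp3 stayed within their intervals when reads were calibrated on genes of a single read. That calibration scales both genotypes nearly alike, so these changes could barely move. No difference of the 7 genes changed sign under any alternative run, which is no check either. A pseudocount, filter, threshold or assumed CV cannot change a sign. The median scaling was small, leaving Izumo1r, the smallest difference, at 0.0069 (log2). Depth limits Foxp3, Lrrc32, Nrp1 and Entpd1, and the variation between libraries is unknown for all 7.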

Other observations

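The deposited p-values give back whole read numbers for most genes of few reads, and 93.9% of the 8464 genes with at most 200 reads had exactly 1 matching pair. For Foxp3 this pair was 82 reads in cKO and 36 reads in WT, out of 36 pairs tried, and for Nrp1 114 reads in cKO and 99 reads in WT, out of 42 tried.

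Of the genes nearest to Foxp3 in ratio, Map3k15 had the FPKM of Foxp3 in each genotype, 1.26 in cKO and 0.55 in WT. These came from 94 reads in cKO and 41 reads in WT, whereas Mlana had 9 reads in cKO and 4 reads in WT. These genes were picked for their ratio, so the likeness is a description of the table at this level.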
